A study of Mus musculus with 10 samples.

Results

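The interferon-induced genes of the mouse lumbar spinal cord were followed through 10 polyA RNA-seq libraries, 1 per animal, from female mice aged 3 months. The set holds 37 genes, named by symbol and found by Ensembl identifier in a table of 22024 genes. They are genes known to respond to interferon; 36 of them passed the filter on low counts that left 15191 genes to be tested, and Mx1 did not. The M337V animals (numbers 1, 2, 3, 7 and 9, n = 5) had a human TARDBP gene with the M337V mutation, linked to amyotrophic lateral sclerosis, as a single copy in a bacterial artificial chromosome. The WT animals (numbers 8 and 10, n = 2) had the same human construct without the mutation. The NTg animals (numbers 4, 5 and 6, n = 3) are labelled nontransgenic. TARDBP encodes the RNA-binding protein TDP-43. Both constructs were placed at the Rosa26 locus of embryonic stem cells by PhiC31 integrase. The lines were backcrossed to C57BL/6J for at least 3 generations. The human gene came with its own genomic surroundings, the mouse Tardbp gene was left in place, and controls were described as littermates matched for age. Homozygous and heterozygous lines existed, and the labels of single animals do not say which was used. No treatment is labelled.

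Interferons are cytokines released when cells sense foreign nucleic acid. Type I interferons signal through the receptor IFNAR and the kinases JAK1 and TYK2 to a complex with STAT2 and IRF9, which binds a promoter element called ISRE; interferon gamma acts on another element, GAS. The genes they switch on encode sensors of RNA, antiviral enzymes, membrane proteins that block virus entry, and GTPases that attack the vacuoles of intracellular microbes. Cells of the healthy central nervous system keep a low, tonic level of many of them.

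The libraries held 18724888 to 21041474 counts each, and the members took 4651 to 6753 of them. All 14 markers of cord neurons and glia had a mean above 1 CPM over all libraries. CPM, the unit of all levels below, is the count scaled to library size by TMM. Among these markers Hoxd10 was at 0.105 CPM in WT 8 and 7.68 CPM in M337V 3, against 15.9 to 46.2 CPM in the others. Hoxc10 was at 9.68 and 9.93 CPM in the same libraries, against 44.9 to 76.6 CPM. Their relation to the members' levels was not tested. Human TARDBP had 2192 to 2723 counts in the 7 libraries labelled transgenic, 1 count in NTg 5 and 4 counts in NTg 6, but 2415 counts (118 CPM) in the library labelled NTg 4. That library went against its label. It stayed in the NTg group, and the calls, the members' medians and the members' differences from NTg with an unadjusted p below 0.05 are also given without it. Nothing in the labels says whether animals shared a litter or a preparation day. The library names number M337V 1 to 3 from 10 to 12 and the other 7 libraries from 2 to 8. In bulk tissue, fewer cells of a type and less RNA per cell cannot be told apart.

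Per kilobase of exon, the highest level was that of Ifi27, a small interferon-induced membrane protein, with a mean of 28.2 CPM per kb over the 10 libraries. The virus-entry inhibitors Ifitm3 (18.8 CPM per kb) and Ifitm2 (8.62 CPM per kb) came next, followed by Ifit3 (6.07 CPM per kb) and Ifit2 (5.40 CPM per kb). The lowest were Zbp1 (0.0903 CPM per kb), Mx1 (0.0910 CPM per kb) and Oas2 (0.192 CPM per kb), and with 2 to 12 counts of Zbp1, 4 to 11 of Mx1, 6 to 21 of Oas1a and 9 to 30 of Oas2 in a library their ratios are imprecise. Ifi27 also varied least between libraries. The highest library held 1.21 times the lowest for Ifi27, against 7.16 times for Isg20, 5.66 times for Rsad2 and 4.07 times for Usp18.

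Promoter windows of 250 bases before to 50 bases after the start of transcription were found for 26 of the 37 members in RefSeq on GRCm38.p6. They were searched on both strands for an ISRE-like motif (GAAA, any 2 bases, then GAAA) and a GAS-like motif (TTCNNNGAA, which is its own reverse complement). The ISRE-like motif was in 15 member windows (57.7%), against 3.99% of 27025 genes with a window. The GAS-like motif was in 9 (34.6%), against 9.55%, and 5 members held both (Oas1a, Ifitm3, Bst2, Gbp7 and Igtp). A match describes letters and is no sign of a factor bound there. The windows of 5 members whose levels are described below follow 5′ to 3′ along the gene's strand, with the matches in capitals. Isg15 (chr4:156200769-156201068, minus strand) holds 3 overlapping ISRE-like matches, Rsad2 (chr12:26456403-26456702, minus strand) and Gbp2 (chr3:142620413-142620712, plus strand) hold 1 each on the opposite strand, and Irf1 (chr11:53769764-53770063, plus strand) and Ifit2 (chr19:34550444-34550743, plus strand) hold 1 GAS-like match each in the first of their windows and no ISRE-like match.
Isg15: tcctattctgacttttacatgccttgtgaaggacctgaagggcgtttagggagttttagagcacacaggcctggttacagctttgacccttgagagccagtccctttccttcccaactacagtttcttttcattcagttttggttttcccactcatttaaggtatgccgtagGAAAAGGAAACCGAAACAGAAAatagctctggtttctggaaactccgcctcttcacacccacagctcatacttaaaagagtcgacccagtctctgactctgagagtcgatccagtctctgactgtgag
Rsad2: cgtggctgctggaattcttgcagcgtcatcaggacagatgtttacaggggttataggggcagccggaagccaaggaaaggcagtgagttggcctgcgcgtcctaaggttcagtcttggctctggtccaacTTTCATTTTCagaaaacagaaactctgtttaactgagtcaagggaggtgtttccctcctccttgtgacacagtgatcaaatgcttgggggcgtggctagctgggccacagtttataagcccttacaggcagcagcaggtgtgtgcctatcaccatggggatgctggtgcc
Gbp2: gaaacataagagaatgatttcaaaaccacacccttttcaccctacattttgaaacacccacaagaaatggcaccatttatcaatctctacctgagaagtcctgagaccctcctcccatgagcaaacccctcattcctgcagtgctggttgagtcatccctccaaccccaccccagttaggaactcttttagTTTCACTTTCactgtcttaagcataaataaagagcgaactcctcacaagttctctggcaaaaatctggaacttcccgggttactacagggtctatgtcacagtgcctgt
Irf1: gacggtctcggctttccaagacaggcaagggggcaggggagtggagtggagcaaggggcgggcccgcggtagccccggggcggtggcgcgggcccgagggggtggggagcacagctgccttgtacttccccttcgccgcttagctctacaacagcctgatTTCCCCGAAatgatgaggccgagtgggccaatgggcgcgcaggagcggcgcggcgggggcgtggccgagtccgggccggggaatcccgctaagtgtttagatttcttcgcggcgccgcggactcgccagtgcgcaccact
Ifit2: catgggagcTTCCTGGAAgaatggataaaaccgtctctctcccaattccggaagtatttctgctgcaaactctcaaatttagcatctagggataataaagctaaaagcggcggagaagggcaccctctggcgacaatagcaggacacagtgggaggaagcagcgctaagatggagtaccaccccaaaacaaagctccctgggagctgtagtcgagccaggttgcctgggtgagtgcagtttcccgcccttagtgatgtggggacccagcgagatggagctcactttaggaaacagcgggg

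**Figure D1:**
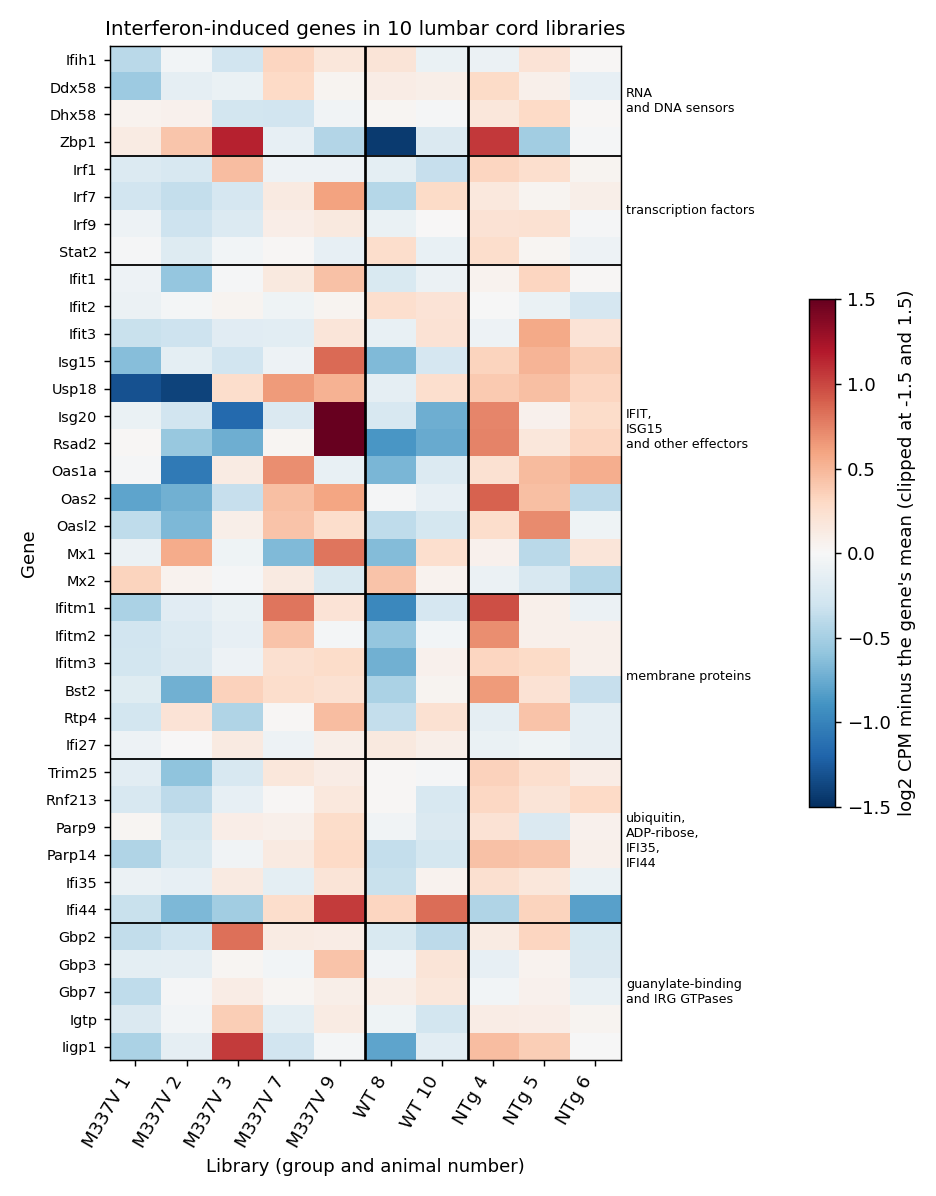
Level of each of the 37 interferon-induced genes (rows, by role) in each library (columns, M337V, then WT, then NTg), as the log2 of its CPM minus its mean over the 10 libraries, with the strongest colours clipped. M337V 9 and NTg 4 each held the highest level of 9 of the 36 tested members, and M337V 2 held the lowest of 10.

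What the mutant human gene does was asked by setting M337V against NTg. No interferon-induced gene passed the threshold: 0 of 36 members had an adjusted p below 0.05 in edgeR's quasi-likelihood test with Benjamini-Hochberg adjustment, where 4.29% of all genes did. At an unadjusted p below 0.05 there were 4 members (11.1%, against 24.5% of all genes), all with a lower level in M337V, namely Rnf213, Ifit3, Trim25 and Parp14. The log2 difference was below 0 for 27 members and above 0 for 9, with a median of -0.15, against -0.01 over all genes. limma-voom and DESeq2 each called 1 member lower, Rnf213, among 1315 and 1498 genes called in all. Without NTg 4 edgeR's test again called 0 members, among 197 genes called in all against 651 with it, and the members' median was -0.0515. That median was -0.23 without M337V 9 or NTg 6, -0.0881 without M337V 1 and -0.0959 without M337V 2. Neutrophil markers summed to 52.3 to 135 CPM in M337V and 155 to 520 CPM in NTg, and microglial markers to 468 to 512 CPM in M337V and 372 to 442 CPM in NTg; their part in the members' levels was not tested.

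Rnf213 encodes a very large ubiquitin ligase with an ATPase motor (GRCm38 chromosome 11, 119393100 to 119487418). It stood at 31.6, 28.5, 34.4, 37.9 and 41.7 CPM in M337V 1, 2, 3, 7 and 9, at 37.9 and 31.6 CPM in WT 8 and 10, and at 46.5, 42.7 and 46 CPM in NTg 4, 5 and 6. Every M337V library lay below every NTg library, and no other member was separated in this way (2.78% of members, against 8.61% of all genes; 0 members lay higher throughout, against 9.51% of all genes). The number of separated lower members was 2 without NTg 4 (5.56%, against 13.6% of all genes), 7 without NTg 6 (19.4%, against 10.8%), 3 without M337V 3, 4 without M337V 7 and 5 without M337V 9 (8.33%, 11.1% and 13.9% of members, against 9.78%, 11.9% and 11.1% of all genes). The log2 difference of M337V against NTg was -0.37 ± 0.11 (SE, adjusted p = 0.0690 in edgeR's test). limma-voom gave an adjusted p = 0.0413 and DESeq2 gave 0.0231. Across the alternatives tried, the adjusted p of Rnf213 lay between 0.0184 (without M337V 7 and 9) and 0.465 (without M337V 1 to 3), with 0.177 without the library labelled NTg 4.

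The other 3 of these members had overlapping groups. The human counterpart of Ifit3 binds IFIT1 and stabilises it on viral RNA. Ifit3 stood at 8.24, 8.37, 9.25, 9.30 and 11.7 CPM in the 5 M337V libraries, 9.63 and 12.1 CPM in WT and 9.84, 15.4 and 12 CPM in NTg. Its log2 difference was -0.40 ± 0.15 for M337V against NTg (adjusted p = 0.136 in edgeR's test). M337V 9 reached into the NTg range and M337V 1, 2, 3 and 7 lay below it. That difference was -0.22 without NTg 5 (edgeR's adjusted p = 0.439) and -0.54 without NTg 4 (0.0989). Trim25, the ubiquitin ligase that activates the sensor RIG-I, stood at 10.4, 7.62, 9.82, 13.0 and 12.5 CPM in M337V, 11.7 and 11.4 CPM in WT and 14.7, 13.7 and 12.5 CPM in NTg (-0.36 ± 0.14 on the log2 scale, edgeR's adjusted p = 0.154). Parp14, an ADP-ribosyltransferase, stood at 5.17, 6.01, 6.79, 7.75 and 8.68 CPM in M337V, 5.49 and 5.89 CPM in WT and 9.55, 9.41 and 7.45 CPM in NTg (-0.35 ± 0.16 on the log2 scale, edgeR's adjusted p = 0.195). For both, M337V 7 reached into the NTg range, and M337V 1, 2 and 3 lay below it. Without NTg 4 both differences were -0.29 (edgeR's adjusted p = 0.366 for Trim25 and 0.431 for Parp14).

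The carriage of the normal human gene was addressed by WT against NTg, and this comparison shares the NTg libraries with the first. Of 36 members 1 rose, Ifit2, and 0 fell at an adjusted p below 0.05 in edgeR's test, where 5.64% of all genes were called. There were 8 members at an unadjusted p below 0.05 (22.2%, against 25.3% of all genes): Ifit2, Ifi27 and Mx2 with a higher level in WT, and Parp14, Rnf213, Ifitm3, Ifitm2 and Isg15 with a lower one. The median log2 difference of the members was -0.27, against -0.02 over all genes, from -1.25 for Rsad2 to 0.83 for Ifi44. Without NTg 4 that median was -0.20. DESeq2 also called 1 member, among 1725 genes in all, and limma-voom called 0 members, among 215.

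Ifit2 encodes a tetratricopeptide protein that binds AU-rich RNA and restrains viruses, including in neurons (GRCm38 chromosome 19, 34550694 to 34576419). It stood at 19.9, 20.7, 21.7, 20.1 and 21.7 CPM in M337V 1, 2, 3, 7 and 9, at 25.2 and 24.3 CPM in WT 8 and 10, and at 21, 19.8 and 17.8 CPM in NTg 4, 5 and 6. Both WT libraries lay above the other 8, and M337V overlapped NTg. The log2 difference of WT against NTg was 0.34 ± 0.08 (SE, adjusted p = 0.0385 in edgeR's test), and that of M337V against NTg was 0.09 ± 0.07 (adjusted p = 0.439). The call was lost in 9 of 19 alternatives, among them limma-voom (adjusted p = 0.0721), the fit with smooth GC and length trends taken out (0.148), and each of the fits without M337V 2, WT 8, WT 10, NTg 5 or NTg 6. Calls over all genes fell too in the fits without 1 of those libraries, from 857 to between 44 (without NTg 6) and 642 (without M337V 2). Without NTg 4 the call of Ifit2 held (0.41, edgeR's adjusted p = 0.0492), among 283 genes called in all. Skeletal muscle markers summed to 521 CPM in WT 8 and 16.3 CPM in WT 10, and to 134, 599 and 947 CPM in NTg 4, 5 and 6, and their part in the result was not tested.

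Libraries of the 2 groups were often separated, mostly with WT below NTg. Both WT libraries lay below all 3 NTg libraries for 16 of 36 members (44.4%), against 22.1% of all genes. They were Irf1, Ifit1, Isg15, Usp18, Isg20, Rsad2, Oas1a, Oasl2, Ifitm1, Ifitm2, Ifitm3, Trim25, Rnf213, Parp14, Igtp and Iigp1. The opposite separation was found for Ifit2, Mx2, Ifi27 and Gbp7 (11.1%, against 19.6%). Without the library labelled NTg 4 the lower members were again 16 (44.4%, against 27.8% of all genes). Without WT 8 they were 21 (58.3%, against 37.8%), and without both they were 21 (58.3%, against 43.4%).

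The entry inhibitor Ifitm3 stood at 10.3, 10.7, 11.9, 14.7 and 15 CPM in M337V, at 7.59 and 13.1 CPM in WT 8 and 10 and at 15.6, 15.2 and 13.2 CPM in NTg, a log2 difference of -0.50 ± 0.22 for WT against NTg (edgeR's adjusted p = 0.178). WT 8 alone was far below, and WT 10 missed the lowest NTg library narrowly. The related Ifitm2 gave -0.60 ± 0.26 (edgeR's adjusted p = 0.178) and Ifitm1 gave -0.95 ± 0.44 (adjusted p = 0.198), each again with its lowest level in WT 8. Without WT 8 the difference was -0.17 for Ifitm3 (edgeR's adjusted p = 0.668) and -0.36 for Ifitm2 (0.512), and without WT 10 it was -0.95 for Ifitm3 (0.0655). Without NTg 4 it was -0.45 for Ifitm3 (edgeR's adjusted p = 0.332) and -0.35 for Ifitm2 (0.461), and without both NTg 4 and WT 8 it was -0.11 for each. Parp14 gave -0.63 ± 0.21 (edgeR's adjusted p = 0.0873) and Rnf213 gave -0.38 ± 0.14 (adjusted p = 0.115). Without NTg 4 they were -0.56 and -0.35, and Rnf213 was at -0.25 without WT 10 (edgeR's adjusted p = 0.446). Some marker lists of other cells were also lower in both WT libraries than in all NTg libraries. Neutrophil markers summed to 28.5 and 97.8 CPM in WT against 520, 155 and 247 CPM in NTg, Schwann cell markers to 113 and 235 CPM against 1698, 465 and 384 CPM, and meningeal fibroblast markers to 117 and 206 CPM against 849, 301 and 241 CPM. Microglial markers were higher in WT, with 516 and 475 CPM against 411, 442 and 372 CPM in NTg, as were the markers of cord neurons and glia, with 41573 and 37650 CPM against 28993, 30898 and 27713 CPM. The sums of the endothelial, muscle, T and NK cell, and plasmacytoid and monocyte lists overlapped between WT and NTg. Most of the last sum was Siglech, also a microglial marker, with 17.9 and 15.1 CPM in WT against 14.5, 14.5 and 12.4 CPM in NTg. The rest of that list (Ly6c2, Ccr2, Bst1, Plac8 and Ccr9) was lower in both WT libraries than in all NTg libraries. For Ly6c2 the levels were 0.471 and 1.22 CPM against 4.99, 1.97 and 2.84 CPM, and for Ccr2 and Plac8 the gap was narrow. None of the genes of these lists was at 0 in all libraries, and their part in the members' levels was not tested.

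The effect of the mutation itself was addressed by M337V against WT. No member and no other gene passed: edgeR's test called 0 of 36 members and 0% of all genes at an adjusted p below 0.05. Ifit2 alone had an unadjusted p below 0.05 (-0.25 ± 0.08 on the log2 scale, edgeR's adjusted p = 0.625; 2.78% of members, against 6.66% of all genes). limma-voom called 0 members and 0 of all genes, and DESeq2 called 0 members among 29 genes called in all. Of the 36 differences 22 were above 0 and 14 below, with a median of 0.09, against 0.00 over all genes; the median was -0.01 without M337V 9, 0.03 without WT 8 and 0.15 without M337V 1 or M337V 2. Rsad2 was the 1 member for which all M337V libraries lay above both WT libraries (2.78%, against 4.85% of all genes) and Ifit2 the 1 for which all lay below (2.78%, against 4.65%). Without WT 10 the higher members were 9 (25%, against 20.4% of all genes) and without WT 8 they were 4 (11.1%, against 19.4%). With 2 WT libraries the standard errors of these log2 differences ran from 0.07 (Ifi27) to 0.65 (Zbp1), and a p that misses the threshold does not show that the groups are alike.

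**Figure D2:**
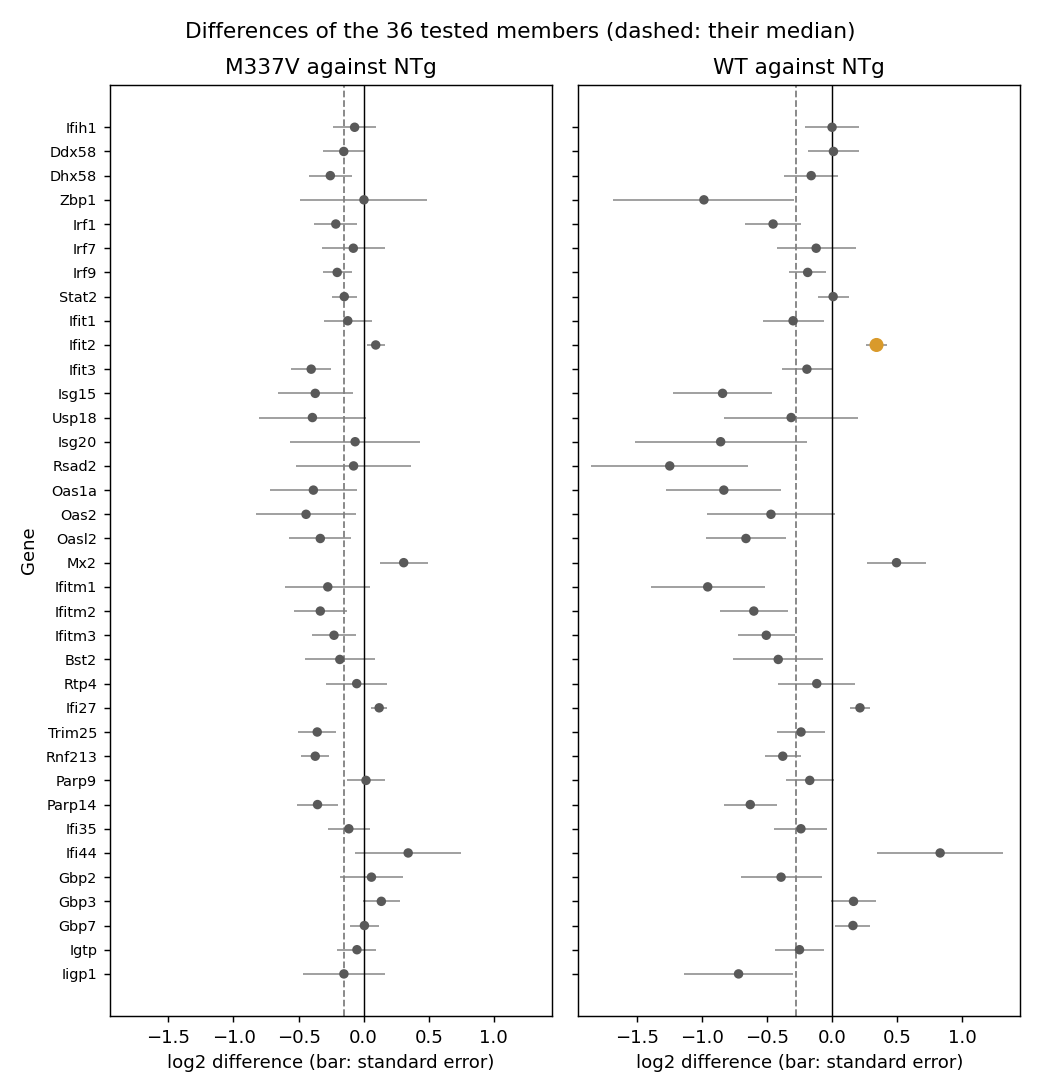
The log2 difference of each tested member with its standard error, in M337V against NTg (left) and WT against NTg (right); a dashed line marks the members' median (-0.15 and -0.27). Ifit2 in WT against NTg was the member past the threshold; 27 of 36 points lie below 0 in each panel.

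By role, the sensors had small median differences. Ifih1 (MDA5) and Ddx58 (RIG-I) detect foreign RNA in the cytoplasm, Dhx58 (LGP2) tunes them, and Zbp1 binds nucleic acid in the Z form. Their median log2 difference from NTg was -0.11 in M337V and -0.08 in WT (-0.13 and -0.05 over the 3 tested without NTg 4), and that of M337V from WT was -0.08. Ddx58 stood at 6.24, 8.26, 8.52, 11.2 and 9.36 CPM in M337V, 9.84 and 9.69 CPM in WT and 11.1, 9.56 and 8.38 CPM in NTg. M337V 1 held its lowest level and M337V 7 its highest, and the groups overlapped.

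Among the transcription factors, Irf9 and Stat2 are parts of the complex that binds ISRE, Irf7 drives the interferon genes themselves, and Irf1 is an early target of interferon gamma. All 4 had log2 differences below 0 for M337V against NTg (median -0.18, and -0.09 without NTg 4). Stat2 had the narrowest range, 25.4, 22.6, 25.1, 26.1 and 23.6 CPM in M337V, 30.9 and 24 CPM in WT and 30.9, 26.3 and 24.5 CPM in NTg. Irf7 stood at 2.20, 2.09, 2.25, 2.95 and 4.05 CPM in M337V, 1.99 and 3.26 CPM in WT and 2.99, 2.76 and 2.84 CPM in NTg. WT 8 held its lowest level and M337V 9 its highest. The Irf9 and Igtp models overlap Rnf31 and Irgm2 on the same strand, and Irf7, Irf1 and Parp9 overlap Phrf1, Gm17334 and Dtx3l on the other strand; the strand setting of the counting is not given, so reads of such pairs cannot be told apart.

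The 12 effectors had the lowest medians from NTg by role, at log2 differences of -0.33 in M337V and -0.47 in WT over the 11 tested. The membrane proteins were close to them in WT, at -0.46. The effectors' median was 0.18 for M337V from WT. Without NTg 4 the effectors' medians from NTg were -0.15 in M337V and -0.33 in WT. In M337V they were then no longer the lowest, with the ubiquitin and ADP-ribose group at -0.16. Isg15 is a ubiquitin-like modifier that is joined to proteins. It stood at 1.23, 1.72, 1.57, 1.81 and 3.43 CPM in M337V 1, 2, 3, 7 and 9, at 1.20 and 1.61 CPM in WT, and at 2.4, 2.71 and 2.47 CPM in NTg. M337V 9 was above every other library, and the other M337V libraries and both WT libraries were below all 3 NTg libraries. The log2 difference of WT against NTg was -0.84 ± 0.38, and -0.87 without NTg 4 (edgeR's adjusted p = 0.275). Usp18 removes ISG15 and damps the receptor, and it stood at 0.512, 0.483, 1.52, 1.96 and 1.82 CPM in M337V, 1.15 and 1.51 CPM in WT and 1.66, 1.72 and 1.58 CPM in NTg. M337V 1 and 2, with 0.512 and 0.483 CPM, were far below the rest.

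Rsad2 (viperin) makes a nucleotide that ends viral RNA chains (GRCm38 chromosome 12, 26442746 to 26456452). It stood at 6.65, 4.45, 3.97, 6.72 and 20.4 CPM in M337V, 3.61 and 3.90 CPM in WT and 11.1, 7.44 and 8.24 CPM in NTg. M337V 9 lay above every other library, M337V 1, 2, 3 and 7 lay below all 3 NTg libraries, and WT lay below all the others. Its log2 difference was -0.08 ± 0.44 from NTg in M337V (edgeR's adjusted p = 0.936), -1.25 ± 0.60 from NTg in WT (0.221) and 1.17 ± 0.57 between M337V and WT (0.758). Rsad2 passed as lower in WT than in NTg in 2 of 19 alternatives, without M337V 9 and in a fit of those groups alone (lowest adjusted p = 0.0309 in edgeR's test, highest 0.547 over the alternatives). It passed as lower in M337V than in NTg without M337V 7 and 9 (edgeR's adjusted p = 0.0461), where over the 21 alternatives the log2 difference ran from -0.82 to 0.62.

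The exonuclease Isg20 stood at 2.20, 1.93, 1.05, 2.02 and 7.49 CPM in M337V, 1.99 and 1.41 CPM in WT and 3.92, 2.46 and 2.84 CPM in NTg. M337V 9 stood far above the other 9 libraries, and the other 4 M337V libraries and WT lay below NTg. The oligoadenylate synthetases Oas1a and Oas2, which activate the RNase that degrades viral RNA, and their relative Oasl2 gave -0.39 ± 0.33, -0.44 ± 0.38 and -0.33 ± 0.24 for M337V against NTg (edgeR's adjusted p 0.514, 0.515 and 0.424). Ifit1, which binds foreign RNA caps, gave -0.12 ± 0.18. Mx2 ran the other way, with 3.07, 2.52, 2.4, 2.69 and 2.08 CPM in M337V, 3.3 and 2.53 CPM in WT and 2.30, 2.07 and 1.82 CPM in NTg. Its log2 difference was 0.50 ± 0.22 for WT against NTg (edgeR's adjusted p = 0.189), which became 0.30 without WT 8 (0.545) and 0.59 without NTg 4 (0.216). Mx1 had 4 to 11 counts in a library and was not tested.

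Of the membrane proteins, Ifi27 was nearly level, with 39.0, 41.5, 45.2, 39.2 and 43.9 CPM in M337V, 45.5 and 43.8 CPM in WT and 38.5, 39.4 and 37.5 CPM in NTg. Both WT libraries were above all NTg libraries by a small margin, a log2 difference of 0.22 ± 0.08 (edgeR's adjusted p = 0.101), and 0.22 without NTg 4 (0.183). Bst2 (tetherin), which holds budding viruses at the cell surface, gave -0.18 ± 0.27 for M337V against NTg and Rtp4, a receptor chaperone, gave -0.05 ± 0.24. Of the ubiquitin and ADP-ribose group, Parp9 gave 0.02 ± 0.15 and Ifi35 gave -0.11 ± 0.16 in the same comparison. Ifi44 stood at 1.43, 1.13, 1.25, 2.17 and 3.74 CPM in M337V, 2.25 and 3.22 CPM in WT and 1.32, 2.27 and 1.02 CPM in NTg. Its highest levels were in M337V 9 and WT 10 and its lowest in NTg 6 and M337V 2. The Ifit, Ifitm, Oas and Gbp genes have near relatives that may share reads, so the split within each family is uncertain.

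**Figure D3:**
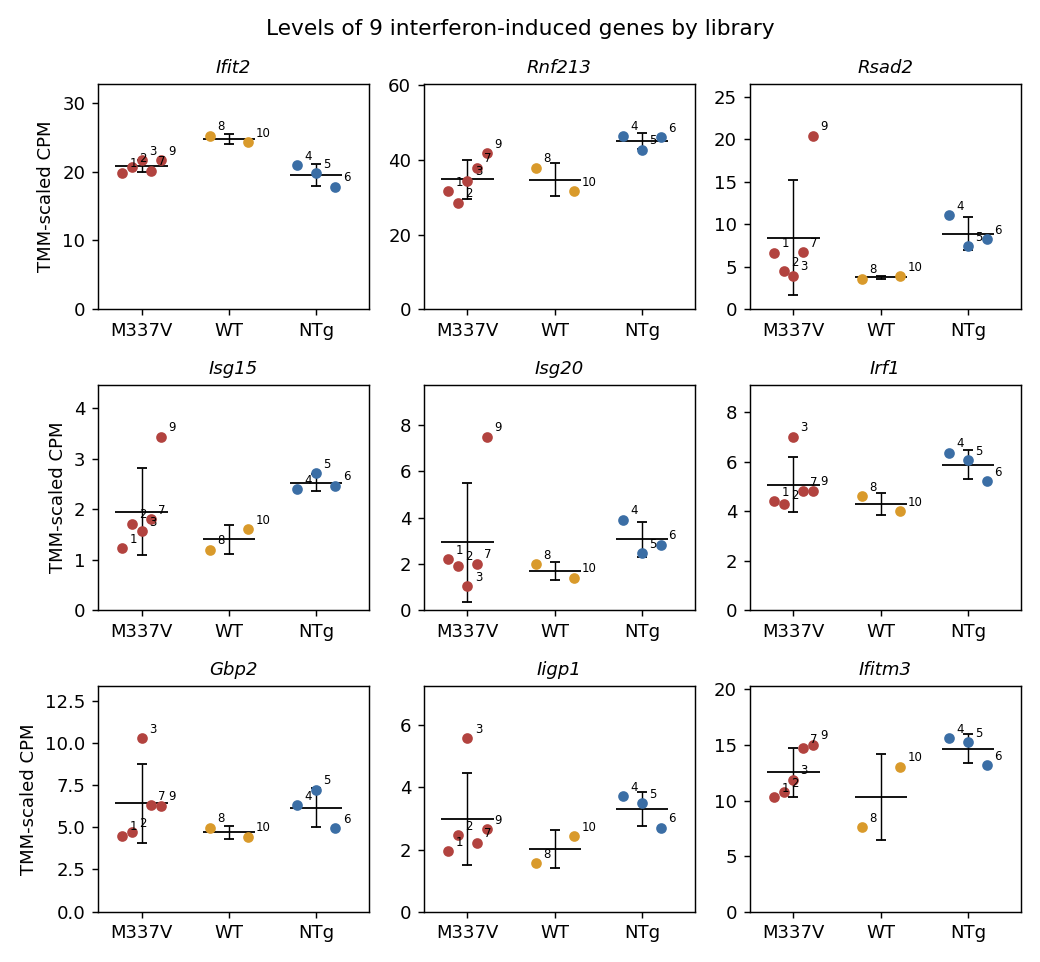
CPM of 9 interferon-induced genes in each library, with M337V, WT and NTg from left to right and animal numbers beside points (horizontal line: group mean; vertical bar: SD). Rsad2, Isg15 and Isg20 are highest in M337V 9, Irf1, Gbp2 and Iigp1 are highest in M337V 3, and Ifit2 is highest in both WT libraries.

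Of the 5 GTPase genes, 4 were highest in another animal than M337V 9, where Rsad2, Isg15 and Isg20 were highest. Gbp2, Gbp3 and Gbp7 are guanylate-binding proteins, and Igtp and Iigp1 are immunity-related GTPases that respond strongly to interferon gamma in mice. Gbp2 stood at 4.5, 4.72, 10.3, 6.31 and 6.29 CPM in M337V 1, 2, 3, 7 and 9, at 4.97 and 4.43 CPM in WT and at 6.32, 7.24 and 4.94 CPM in NTg. Iigp1 stood at 1.94, 2.47, 5.59, 2.22 and 2.65 CPM in M337V, 1.57 and 2.44 CPM in WT and 3.72, 3.50 and 2.70 CPM in NTg. M337V 3 held the highest level of both among all 10 libraries. It also held the highest of Igtp (5.80 CPM, against 3.70 to 4.89 CPM in the other 9), of Irf1, and of Zbp1 with 12 counts, as many as NTg 4 had. Gbp3 was highest in M337V 9 and Gbp7 in WT 10. Irf1 stood at 4.40, 4.29, 7.00, 4.81 and 4.83 CPM in M337V, 4.60 and 3.99 CPM in WT and 6.37, 6.06 and 5.21 CPM in NTg. In M337V 9, where Rsad2, Isg20 and Isg15 were highest, Irf1 was at 4.83 CPM and Iigp1 at 2.65 CPM. These genes were picked out by their values, so the pattern is a description of 2 animals and has no test. Schwann cell markers summed to 1117 CPM, meningeal fibroblast markers to 510 CPM and skeletal muscle markers to 152 CPM in M337V 3, above the other M337V libraries, whose highest sums were 624, 448 and 94.8 CPM. Their part in the result was not tested.

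Within M337V the animals also differed by library number. M337V 7 and 9 both lay above M337V 1, 2 and 3 for 18 of 36 members (50%), against 14.9% of all genes, and both lay below them for 1, Zbp1 (2.78%, against 15.8%). The 18 were Ddx58, Ifih1, Irf7, Irf9, Ifit1, Ifit3, Isg15, Usp18, Rsad2, Oas2, Oasl2, Ifitm1, Ifitm2, Ifitm3, Trim25, Rnf213, Parp14 and Ifi44. The count was 18 with RLE size factors or library totals alone and 17 with smooth GC and length trends taken out. Without M337V 9 it was 20 (55.6%, against 27.6% of all genes) and without M337V 7 it was 23 (63.9%, against 25.6%). The median of the members' log2 levels, each relative to its mean over the 10 libraries, was 0.09 and 0.17 in M337V 7 and 9, against -0.23, -0.22 and -0.05 in M337V 1, 2 and 3; it was -0.14 and -0.07 in WT and 0.25, 0.21 and 0.00 in NTg. Endothelial markers summed to 306 and 343 CPM in M337V 7 and 9, against 244, 254 and 259 CPM in M337V 1, 2 and 3, and microglial markers to 491 and 468 CPM, against 507, 512 and 485 CPM. Neutrophil markers summed to 89.0 and 135 CPM in M337V 7 and 9, against 64.4, 87.1 and 52.3 CPM in M337V 1, 2 and 3. Markers of cord neurons and glia summed to 37517 and 35697 CPM, against 39921, 42127 and 37824 CPM. The sums of the other marker lists overlapped between the 2 sets of animals. The part of these cells was not tested, and library number and animal cannot be told apart.

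That difference moved the comparison with NTg. Without M337V 1 to 3 the members' median log2 difference of M337V against NTg was 0.0615, where edgeR's test called 0 members and 3 of all 15191 genes. Without M337V 7 and 9 it was -0.33, where the test called 3 members lower, Rnf213, Trim25 and Rsad2, among 1146 genes called in all. Without M337V 1 to 3 the median of M337V against WT was 0.27.

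**Figure D4:**
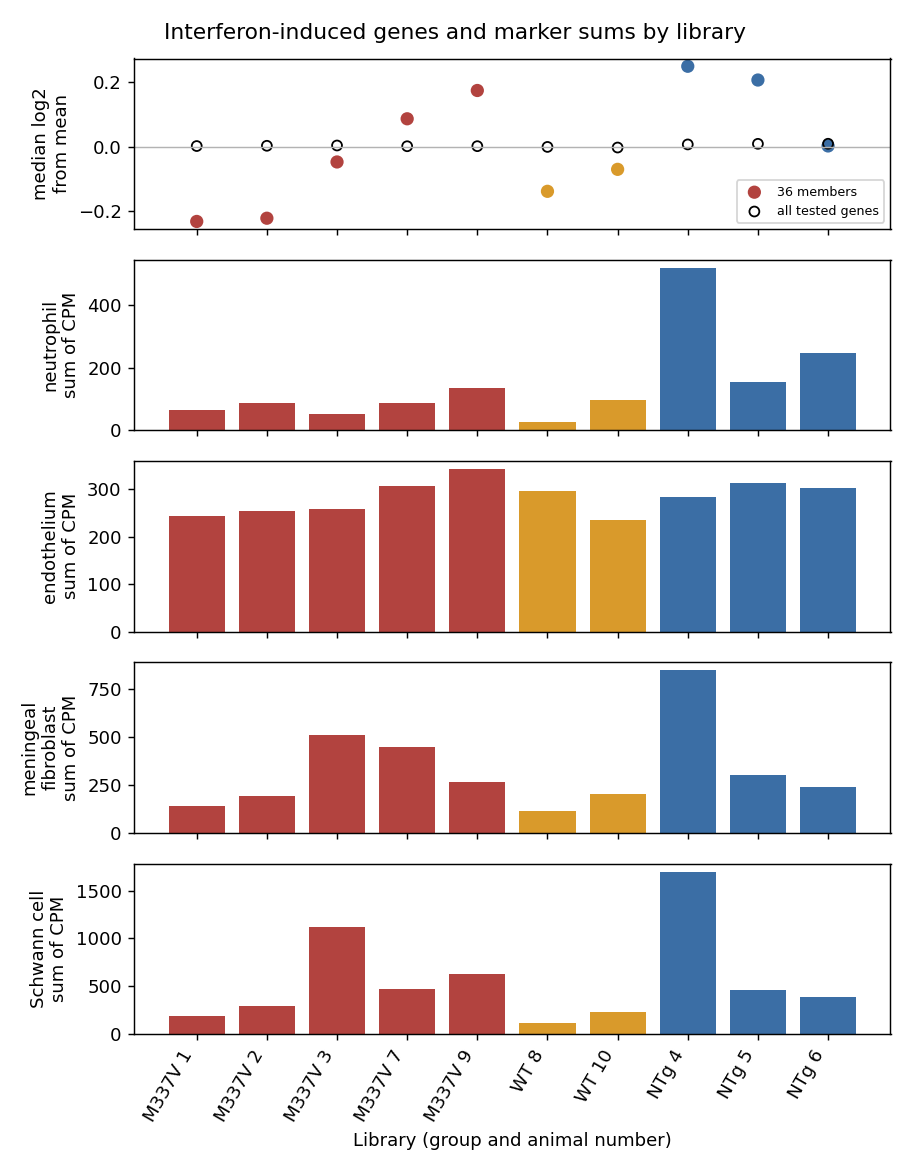
Upper panel: median over the 36 members of the log2 level relative to the gene's mean, in each library from M337V to WT to NTg (filled points; open circles: all tested genes). Lower panels: summed CPM of neutrophil, endothelial, meningeal fibroblast and Schwann cell markers in the same libraries. The members' median was highest in NTg 4 (0.25) and lowest in M337V 1 (-0.23).

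The rest of the pathway showed few calls. Of 12 listed cytokine and chemokine genes only Cxcl10 passed the filter, a chemokine that draws T cells. It stood at 0.665, 0.644, 0.627, 0.775 and 0.364 CPM in M337V, 0.628 and 0.487 CPM in WT and 0.245, 0.443 and 0.279 CPM in NTg, a log2 difference of 0.92 ± 0.36 for M337V against NTg (edgeR's adjusted p = 0.138). M337V 9, the animal with most Rsad2, had the lowest level of its group. Cxcl10 was below 1 CPM in every library, so its ratios are imprecise. The interferon genes of that list were too low to test. Of 15 receptors, kinases and feedback regulators 0 were called in any comparison by edgeR's test. In M337V against NTg, WT against NTg and M337V against WT, 2, 3 and 0 had an unadjusted p below 0.05. Of all genes 24.5%, 25.3% and 6.66% did. The smallest p belonged to Jak2 (0.22, adjusted p = 0.0910) and Ifnlr1 (-0.48, 0.165) in the first, Tyk2 (-0.33, 0.107) and Jak2 (0.23, 0.127) in the second, and Socs3 (0.70, 0.776) and Tyk2 (0.20, 0.779) in the third, as log2 differences with edgeR's adjusted p. Of 19 genes of nucleic acid sensing and signalling 0 were called by edgeR's test. In the same order of comparisons, and beside the same shares of all genes, 3, 5 and 4 had an unadjusted p below 0.05. They included the RNA-activated kinase Eif2ak2 (-0.27, adjusted p = 0.0979) and the RNA-editing enzyme Adar (-0.24, 0.102) in M337V against NTg, the endosomal RNA receptor Tlr3 (0.44, 0.0524) and Adar (-0.34, 0.0700) in WT against NTg, and the microglial factor Irf8 (0.59, 0.625) and Eif2ak2 (-0.32, 0.633) in M337V against WT. Without NTg 4 edgeR's test called 0 genes of these lists in M337V or WT against NTg, where it called 197 and 283 of all genes. At an unadjusted p below 0.05 there were then 1 and 1 of the receptors, kinases and regulators. Of the sensing and signalling genes there were 1 and 5. Cxcl10 in M337V against NTg was then at 0.77, and its unadjusted p was no longer below 0.05.

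Of 33 other interferon-induced genes tested, edgeR's test called 0 between M337V and NTg (11 at an unadjusted p below 0.05), 1 higher and 1 lower between WT and NTg (12 at an unadjusted p below 0.05; a share of 2 in 33, where 5.64% of all genes were called), and 0 between M337V and WT (3 at an unadjusted p below 0.05). Over all genes 24.5%, 25.3% and 6.66% were at an unadjusted p below 0.05 in these comparisons in turn. The medians of the 33 genes were -0.18, -0.34 and 0.15 on the log2 scale. Without NTg 4 edgeR's test called 0 of the 33 in either comparison with NTg, with 5 for M337V and 8 for WT at an unadjusted p below 0.05. Over all genes it then called 197 for M337V and 283 for WT. Lgals9, a galectin, stood at 10.7, 11.5, 11.4, 13.7 and 12.9 CPM in M337V, 10.4 and 9.65 CPM in WT and 14.2, 14.0 and 13.6 CPM in NTg. It fell in WT against NTg by a log2 difference of -0.48 ± 0.12 (edgeR's adjusted p = 0.0367), and M337V against WT gave 0.27 ± 0.11 (adjusted p = 0.730). Xaf1, which promotes cell death, stood at 9.93, 10.8, 37.3, 51.6 and 34.9 CPM in M337V, 53.6 and 35.9 CPM in WT and 10.3, 10.7 and 8.19 CPM in NTg. It rose in WT against NTg (2.20 ± 0.57 on the log2 scale, edgeR's adjusted p = 0.0452), and M337V against NTg gave 1.57 ± 0.49 (adjusted p = 0.0844). Both calls were lost without NTg 4 (edgeR's adjusted p = 0.0868 for Lgals9 and 0.0994 for Xaf1), without any other single library of WT or NTg and with limma-voom, and that of Xaf1 also without M337V 9 (0.0566). The libraries formed a low level of 8.19 to 10.8 CPM, with M337V 1 and 2 and all NTg, and a high level of 34.9 to 53.6 CPM, with the other 5. The oligoadenylate synthetase gene Oas3 stood at 0.256, 0.107, 0.261, 0.724 and 0.572 CPM in M337V, 0.314 and 0.195 CPM in WT and 1.81, 0.985 and 0.745 CPM in NTg (-1.60 ± 0.47 for M337V against NTg, edgeR's adjusted p = 0.0722). The GTPase gene Tgtp2, with 0.512, 0.751, 1.93, 0.775 and 0.780 CPM in M337V and 0.209 and 0.292 CPM in WT, differed by 1.89 ± 0.65 (edgeR's adjusted p = 0.676), and M337V 3 held its highest level, as for Iigp1 and Gbp2. At such low levels the ratios of Oas3 and Tgtp2 are imprecise too.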

How the data were processed

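PolyA RNA of the lumbar cord was prepared with a stranded TruSeq kit and sequenced as read pairs on a HiSeq instrument, per the labels' protocols. The authors deposited raw read counts, whole numbers for each gene in each library. Tools named in the submitters' processing notes, without roles, are STAR 2.4.2a, Salmon 0.8.2, Trimmomatic 0.32, DESeq2 1.14.1, featureCounts, Picard 2.6.0, R 3.3.0, FastQC 0.11.2 and Subread 1.4.6. Which genome build, annotation and strand setting the counting used is not given in the sources used here. Symbols were matched to identifiers with a GENCODE table for GRCm38, which left 249 of 22024 identifiers without a name. Promoter windows are those of RefSeq on GRCm38.p6.

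Counts were analysed with edgeR 4.0.16 in R 4.3.3: low genes dropped by filterByExpr (by group, minimum total 15 and minimum count 10), TMM scaling, and the quasi-likelihood test on a mean per group over all 10 libraries. P-values were adjusted over the 15191 genes tested by Benjamini-Hochberg, with a threshold of 0.05. Limma 3.58.1 (voom) and DESeq2 1.42.0 served as alternatives. Of these only the edgeR fit was tested on simulated data. Values are TMM-scaled CPM, with log2 differences and standard errors. Groups came from the titles, whose animal numbers are used here. The text names all 37 members, and of 4 further pathway lists every called gene and otherwise the 2 with the smallest p in a list and comparison. Members, lists and alternatives were chosen with earlier results of these data known. No 2 libraries were copies of each other (lowest chi-square per degree of freedom 4.87, M337V 1 and 2, genes with at least 20 counts). The labels name no separate litters or batches, so p-values measure the spread between these animals.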

Additional observations from a re-analysis of the deposited data

Results flagged for a closer look

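Within the M337V group of 5 libraries, the gap between the highest or lowest library and its nearest neighbour was set against the range of the group for each of the 37 members, with 0.71 as Dixon's 95% limit. For independent, normally distributed values that rule picks out about 1 group in 20 by chance. It picked out 6 of the 37, each in M337V 9 or M337V 3. The rule was run on the members alone, so no share over all genes can be set beside this count. Flagged genes that share an animal are also not independent of each other. Rsad2 in M337V 9 stood at 20.4 CPM, next to 6.72 CPM in M337V 7. Isg20 in M337V 9 stood at 7.49 CPM, next to 2.20 CPM in M337V 1. Isg15 in M337V 9 stood at 3.43 CPM, next to 1.81 CPM in M337V 7. Gbp3 in M337V 9 stood at 11.1 CPM, next to 8.41 CPM in M337V 3. Irf1 in M337V 3 stood at 7.00 CPM, next to 4.83 CPM in M337V 9. Iigp1 in M337V 3 stood at 5.59 CPM, next to 2.65 CPM in M337V 9. 4 more members had a ratio of gap to range just below the limit, Ifitm2 in M337V 7 (0.705, at 7.39 CPM), Gbp7 in M337V 1 (0.701, at 9.16 CPM), Ifit3 in M337V 9 (0.696, at 11.7 CPM) and Gbp2 in M337V 3 (0.689, at 10.3 CPM). The WT and NTg groups are too small for this rule.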

How the results depend on the processing

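No paired analysis was possible because the groups share no animal number. In M337V against NTg, 0 members passed as reported, among 651 genes called in all. There was 1 with limma-voom, 1 with DESeq2 and 3 without M337V 7 and 9, among 1315, 1498 and 1146 genes. Leaving out single libraries gave 0 to 1 (1 without M337V 9), and all genes called ran from 2 (without NTg 6) to 1016 (without WT 10). The median of -0.15 became 0.0615 without M337V 1 to 3 and -0.33 without M337V 7 and 9. In WT against NTg, 1 member passed, among 857 genes called in all. The count was 0 with limma-voom, without both NTg 4 and WT 8, and with smooth GC and length trends taken out (215, 142 and 426 genes in all). Leaving out single libraries gave 0 to 2, with 0 without M337V 2, WT 8, WT 10, NTg 5 or NTg 6 and 2 without M337V 9. All genes called in those fits were 642, 246, 265, 576, 44 and 730 in turn. The log2 difference of Ifit2 (0.34) was 0.36 with limma-voom, 0.36 in a fit of those groups alone (adjusted p = 0.0886), 0.38 without both libraries (adjusted p = 0.106), 0.21 with the trends taken out and 0.28 to 0.41 without single libraries. In M337V against WT the median of 0.09 was 0.27 without M337V 1 to 3. The cause of these changes was not tested. The sign of the log2 difference was the same in every alternative for 14 of 36 members in M337V against NTg (21 alternatives), 28 in WT against NTg (19) and 19 in M337V against WT (21). Ifit2 kept its direction in its 19 alternatives. Lgals9 (log2 difference -0.53 to -0.43) and Xaf1 (1.89 to 2.46) kept theirs in the 16 run for them, and their calls in WT against NTg were lost in 7 and 8 of these. Taking out those trends, and the alternatives for Lgals9 and Xaf1, were chosen after results were seen. With 2 WT libraries and a few counts of Zbp1, Mx1, Oas1a and Oas2, small differences of these genes were not detectable at this depth.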
